A study of Mus musculus with 6 samples.

Results

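Inflammasome sensors and effectors were described here as 10 genes taken by symbol from the 24786 symbols with an expression value: the sensors *Nlrp3*, *Nlrc4*, *Nlrp1b* and *Aim2*, the adaptor *Pycard*, the NLRP3 partner *Nek7*, the caspases *Casp1* and *Casp4*, the pore-forming effector *Gsdmd* and the cytokine *Il18*. They were measured by mRNA sequencing of Raw264.7 cells, a mouse macrophage line that arose from a tumor induced by Abelson murine leukemia virus. Lentivirus carried a control shRNA into one group (sh-NC, n = 3 libraries) and an shRNA against the ETS transcription factor *Etv5* into the other (sh-*Etv5*, n = 3 libraries). The labels give strain C57BL/6 and post natal day 21 for both groups, although Raw264.7 is usually listed as derived from BALB/c. Which strain's alleles the cells carry was not tested. The labels also name Lipofectamine as present during infection, and give 24 or 48 h after infection for measurements of expression. The methods describe puromycin selection and stably transfected cells. Which of the shRNAs was sequenced is not stated, and neither is it stated whether libraries stem from separate cultures or infections. The p-values therefore measure the spread between these libraries only, which may be technical. No stimulus such as LPS is named for either group.

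Inflammasomes are protein platforms of the cytosol in which a sensor of microbes or cell damage brings caspase-1 together, in most cases through the adaptor ASC, the product of *Pycard*. Active caspase-1 cleaves the precursors of interleukin-1β and interleukin-18 and the pore-forming protein gasdermin D, and the pores lead to the lytic cell death named pyroptosis. Mouse *Casp4* encodes caspase-11, which binds cytosolic LPS and cleaves gasdermin D without a separate sensor. Transcription is only the priming step of this pathway, and the mRNA values below do not measure cleavage, secretion or cell death.

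Values are RPKM, in which reads are divided by gene length in kilobases and by the number of mapped reads, so that levels can be set beside each other between genes. RPKM sums ran from 320462 to 322949 in sh-NC and from 330454 to 340257 in the sh-*Etv5* libraries. The 10 highest genes of a library held 7.04% to 7.17% of its sum in sh-NC and 10.5% to 10.8% in sh-*Etv5*. *Etv5* itself stood at 9.18, 9.89 and 9.39 RPKM in sh-NC and at 5.19, 4.91 and 5.28 RPKM in sh-*Etv5*, and fell by 0.78 on the log2 scale (adjusted p = 2.74e-07). Of 8 macrophage markers, 7 were at 1 RPKM or more in some library, and *Mertk* was near 0 in all 6. The summed macrophage markers ran from 4298 to 4408 RPKM in sh-NC and from 3368 to 3486 RPKM in sh-*Etv5*, a sum carried mainly by *Lyz2* (means of 2834 and 2041 RPKM). Of the 7, 4 were called lower (*Lyz2*, *Csf1r*, *Cd68* and *Fcgr1*) and 3 higher (*Adgre1* 4.35-fold, *Itgam* 3.77-fold and *Cd14* 1.19-fold). The 6 neutrophil markers summed to 0.289 to 0.630 RPKM in sh-NC and 15.6 to 19.9 RPKM in sh-*Etv5*, nearly all of it *S100a8*, while *S100a9*, *Ly6g* and *Elane* were listed at 0 in all 6 libraries. Summed markers of fibroblasts, B cells, T and NK cells and epithelium reached at most 1.10 RPKM.

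Both caspases rose, with mean RPKM of *Casp4* 5.75-fold and of *Casp1* 2.0-fold higher in sh-*Etv5*. *Nlrc4*, low in both groups, was 2.69-fold higher in RPKM but changed less than *Casp1* on the scale of log2(RPKM + 1), an order that turned with pseudocounts of 0.1 (1.30 for *Nlrc4*, 0.99 for *Casp1*) and 0.01. *Aim2* also rose, while *Nek7*, *Nlrp1b*, *Gsdmd* and *Nlrp3* fell by less than 1.4-fold on the RPKM scale. *Il18* did not pass the test and *Pycard* was close to 0 in both groups. Of the 10 genes, 9 passed a filter of at least 1 RPKM in at least 3 of the 6 libraries, and *Nlrc4* passed it through the sh-*Etv5* libraries alone. Among these 9, 4 were higher, 4 were lower and 1 was not called by limma at an adjusted p under 0.05. Over all 10738 tested genes, 74.3% were called, 33.3% as higher and 41.0% as lower, so these counts are no result about the 10 genes and the description rests on the sizes. The ranges of sh-NC and sh-*Etv5* were separate for 8 of the 9 tested genes, 4 in each direction, with *Nlrc4* separate through the filter. Of all tested genes, 76.4% were separate (34.3% higher and 42.1% lower). The median absolute log2 fold change of all tested genes was 0.31, on the scale of log2(RPKM + 1) that is used throughout and that understates changes of low genes.

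**Figure D1:**
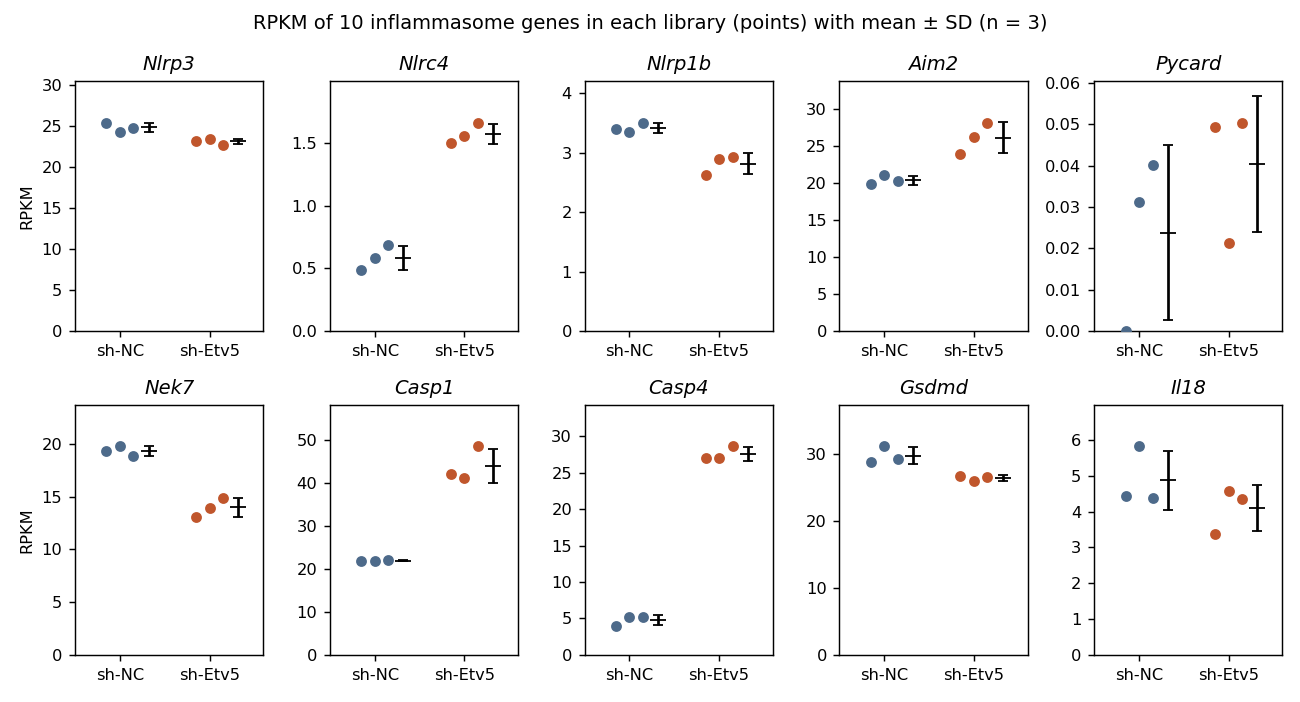
RPKM of each of the 10 genes (linear axes that start at 0, 1 scale per gene) in the 3 sh-NC and the 3 sh-Etv5 libraries (points), with the mean and SD beside them. The groups are separate for 8 genes and overlap for Pycard and Il18, and the Pycard axis ends below 0.1 RPKM.

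Among the sensors, *Nlrp3*, which answers to potassium efflux and membrane damage, was measured at 25.4, 24.3 and 24.8 RPKM in sh-NC and at 23.2, 23.4 and 22.7 RPKM in sh-*Etv5*. All sh-*Etv5* libraries lay below all sh-NC libraries, but the step was small. *Nlrp3* fell by 0.10 on the log2 scale (SE 0.0394, adjusted p = 0.0397), and 8884 of the tested genes changed by a larger amount. This call was lost in 9 of 15 alternative analyses, where the adjusted p reached 0.144, among them those without each sh-NC library in turn and without sh-*Etv5* replicate 1 or 3. *Nlrp3* lies on the plus strand of chromosome 11 from 59541568 to 59566956 (GRCm38, as all positions here).

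*Nlrc4*, the sensor that NAIP proteins bring to bacterial flagellin and secretion needles, was measured at 0.490, 0.580 and 0.683 RPKM in sh-NC. It was measured at 1.50, 1.55 and 1.66 RPKM in sh-*Etv5*. Every sh-*Etv5* library was above every sh-NC library, at a level that only 5.67% of tested genes were below. The mean was 2.69-fold higher in RPKM, and the log2 fold change was 0.70 (SE 0.0844, adjusted p = 1.83e-05). It passed the filter through sh-*Etv5* alone and so had to differ, and this p is no added support. Fitted by limma without the filter, its adjusted p was 0.00101. *Nlrc4* is a minus-strand gene of chromosome 17 from 74425438 to 74459142.

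*Nlrp1b* encodes a sensor that anthrax lethal factor cleaves in some mouse strains and not in others. It was measured at 3.40, 3.34 and 3.50 RPKM in sh-NC and at 2.62, 2.89 and 2.93 RPKM in sh-*Etv5*. The groups did not overlap, and sh-*Etv5* replicate 1 was the lowest library. *Nlrp1b* fell by 0.21 on the log2 scale (SE 0.0673, adjusted p = 0.0145). The adjusted p rose to at most 0.0540, and the call was lost, without sh-NC replicate 3 or without sh-*Etv5* replicate 1, where the log2 fold change was as small as -0.17. *Nlrp1b* is a minus-strand gene of chromosome 11 from 71153102 to 71230733 and shares 1.45% of its 50-base stretches with other genes, mainly *Nlrp1a*, whose mean was 0.0205 RPKM in sh-NC and 0.0131 RPKM in sh-*Etv5*.

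*Aim2*, which binds double-stranded DNA in the cytosol, was measured at 19.9, 21.1 and 20.3 RPKM in sh-NC and at 24.0, 26.2 and 28.2 RPKM in sh-*Etv5*. The sh-*Etv5* libraries were more spread (SD 2.11 against 0.610) but all above sh-NC. The log2 fold change was 0.34 (SE 0.0567, adjusted p = 0.000247), near the median absolute change of all tested genes. *Aim2* lies on the plus strand of chromosome 1 from 173350879 to 173466040. Of 14 genes within 250 kb of it, 2 passed the filter, both of the interferon-inducible HIN-200 family to which *Aim2* belongs. *Ifi209* was at a mean of 0.408 RPKM in sh-NC and 4.23 RPKM in sh-*Etv5* (log2 fold change 1.89, adjusted p = 4.68e-08), and *Ifi208* at 0.0713 and 1.23 RPKM (log2 fold change 1.05, adjusted p = 7.51e-07). Both were named after their values were seen. Both passed the filter through sh-*Etv5* alone and so had to differ, and these p-values are no added support.

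*Pycard* was measured at 0, 0.0314 and 0.0401 RPKM in sh-NC and at 0.0494, 0.0213 and 0.0504 RPKM in sh-*Etv5*. The groups overlapped, and every library was far below the filter. The adaptor through which *Nlrp3* and *Aim2* act was thus close to undetected at the mRNA level in this line under both conditions. *Pycard* was already known to be absent from this cell line, so its low values are no new result. When all genes were fitted, the *Pycard* difference was 0.023 on the log2 scale (95% interval -0.030 to 0.077, adjusted p = 0.589). *Pycard* is a minus-strand gene of chromosome 7 from 127989708 to 127993867, and an exon of it overlaps the opposite-strand locus *Gm45205*.

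*Nek7*, a kinase that binds NLRP3 as part of its active assembly, was measured at 19.3, 19.8 and 18.8 RPKM in sh-NC and at 13.1, 14.0 and 14.9 RPKM in sh-*Etv5*. It showed the largest decrease of the 10 genes, with no overlap between the groups. *Nek7* fell by 0.44 on the log2 scale (SE 0.0519, adjusted p = 1.54e-05), which is a change of -27.6% in mean RPKM. *Nek7* is a minus-strand gene of chromosome 1 from 138482875 to 138620141. One of its exons overlaps the antisense gene *Gm28501*, and reads of such a pair cannot be told apart unless strand was used in counting.

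*Casp1*, the caspase that processes interleukin-1β and interleukin-18, was measured at 21.8, 21.9 and 22.1 RPKM in sh-NC and at 41.9, 41.1 and 48.4 RPKM in sh-*Etv5*. The sh-NC libraries were nearly identical (SD 0.168), and sh-*Etv5* replicate 3 was the highest. The log2 fold change was 0.96 (SE 0.0569, adjusted p = 4.75e-08), and 711 of the tested genes had a higher one.

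*Casp4* was measured at 4.0, 5.18 and 5.19 RPKM in sh-NC and at 27.0, 27.1 and 28.6 RPKM in sh-*Etv5*. The lowest sh-*Etv5* library was thus far above the highest sh-NC library. The log2 fold change was 2.31 (SE 0.0785, adjusted p = 5.99e-10), and 114 of the tested genes had a higher one. Over 15 alternative analyses it ranged from 2.21 to 2.53, and that of *Casp1* from 0.89 to 1.01.

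*Casp1* and *Casp4* are next to each other on the plus strand of chromosome 9, from 5298517 to 5307265 and from 5308828 to 5336783. No 50-base stretch of either transcript set was shared with another gene. The remaining neighbour of the pair within 250 kb, *Casp12*, was listed at 0 in sh-NC and had a mean of 0.0138 RPKM in sh-*Etv5*. The ratio of *Casp4* to *Casp1* was 0.184, 0.237 and 0.235 in sh-NC and 0.645, 0.658 and 0.591 in sh-*Etv5*, a 2.89-fold difference of the means. An exact permutation test gave p = 0.1 for it (two-sided), which is the smallest p that 3 against 3 libraries allow and stays 0.1 after adjustment over 4 ratios.

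The 250 bases before the start of the neighbours *Casp4* and *Casp1*, which rose by different amounts, and of *Nlrp3*, the sensor with the smallest absolute log2 fold change, are shown because these genes differ in size of response. They come from RefSeq on GRCm38.p6, at chr9:5308599-5308848 for *Casp4*, chr9:5298267-5298516 for *Casp1* and chr11:59541319-59541568 for *Nlrp3*, all on the plus strand, and capitals mark matches to the NF-kB consensus on either strand.
Casp4: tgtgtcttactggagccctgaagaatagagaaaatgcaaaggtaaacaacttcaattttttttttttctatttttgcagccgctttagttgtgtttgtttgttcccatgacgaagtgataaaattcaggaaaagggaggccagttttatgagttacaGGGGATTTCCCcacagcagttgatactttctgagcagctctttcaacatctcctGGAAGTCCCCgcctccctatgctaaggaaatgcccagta
Casp1: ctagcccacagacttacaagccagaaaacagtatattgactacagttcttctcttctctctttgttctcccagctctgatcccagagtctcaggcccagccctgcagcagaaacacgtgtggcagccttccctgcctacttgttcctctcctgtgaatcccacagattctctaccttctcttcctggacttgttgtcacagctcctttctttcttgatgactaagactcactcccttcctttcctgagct
Nlrp3: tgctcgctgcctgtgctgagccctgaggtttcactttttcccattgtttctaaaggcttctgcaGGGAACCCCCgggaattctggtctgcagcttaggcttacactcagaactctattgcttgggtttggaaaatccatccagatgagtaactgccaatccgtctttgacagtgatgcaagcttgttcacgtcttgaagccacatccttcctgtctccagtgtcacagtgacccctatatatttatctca

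For the motif search, windows from 250 bases before to 50 bases after each RefSeq start were used, and 9 of the 10 genes had at least 1 such window, with none used for *Gsdmd*. RefSeq gives *Casp4* a pair of starts whose windows hold the same NF-kB matches, overlapping ones from -93 to -83 and another from -39 to -30 when counted from the start used above, or from -104 to -94 and from -50 to -41 when counted from the other. The second *Nlrp3* start had 1 from -186 to -177, and its other start and *Casp1* had none. An NF-kB match stood in 8.46% of all 32851 windows. The letters CGGAAG, 1 form of the ETS site, were searched because ETV5 is an ETS factor. Among the 9 genes searched this form was found in the window of *Aim2* alone, from -165 to -160, and in 16.9% of all windows. Other forms of the ETS site, such as AGGAAG, were not searched, so the remaining windows cannot be said to lack ETS sites. No match to the ISRE consensus (3.44% of all windows), the GAS letters TTCNNNGAA (8.30%) or the AP-1 letters TGANTCA (7.81%) stood in the windows of the 9 genes. For *Nlrc4*, *Nek7* and *Il18*, the bases after the RefSeq start were not found at the start of a GENCODE transcript. Their windows may therefore miss the start in use. Both strands were searched, and a match describes letters, not binding.

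Downstream of the caspases, *Gsdmd*, whose protein forms the membrane pore, was measured at 28.8, 31.1 and 29.3 RPKM in sh-NC and at 26.7, 26.0 and 26.6 RPKM in sh-*Etv5*. The groups did not overlap. *Gsdmd* fell by 0.17 on the log2 scale (SE 0.0418, adjusted p = 0.00394). It lies on the plus strand of chromosome 15 from 75862327 to 75867408.

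*Il18*, the cytokine precursor that caspase-1 cleaves, was measured at 4.43, 5.82 and 4.37 RPKM in sh-NC and at 3.39, 4.58 and 4.35 RPKM in sh-*Etv5*. The groups overlapped. The *Il18* difference was -0.20 on the log2 scale (95% interval -0.45 to 0.045, adjusted p = 0.123), an interval that holds both no change and a fall larger than that of *Gsdmd*. *Il18* lies on the plus strand of chromosome 9 from 50554827 to 50581840.

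**Figure D2:**
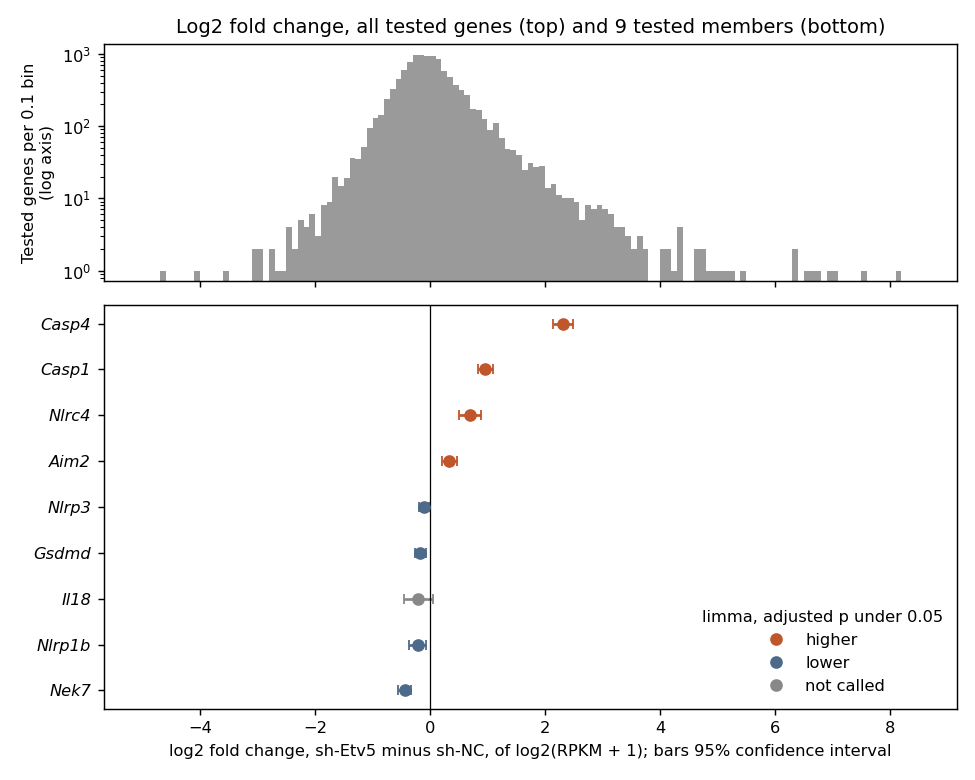
Log2 fold change (sh-Etv5 minus sh-NC, of log2(RPKM + 1)) as a histogram of the 10738 tested genes on a log count axis (top) and for the 9 tested inflammasome genes with 95% confidence intervals (bottom). Casp4 at 2.31, Casp1 at 0.96 and Nlrc4 at 0.70 stand to the right, and the other 6 lie between -0.44 and 0.34.

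*Casp1* was also set against its substrate and sensor genes within each library. The ratio of *Casp1* to *Gsdmd* was 0.755, 0.702 and 0.754 in sh-NC and 1.57, 1.59 and 1.82 in sh-*Etv5* (2.25-fold). The ratio of *Casp1* to *Nlrp3* was 0.857, 0.898 and 0.891 in sh-NC and 1.80, 1.76 and 2.13 in sh-*Etv5* (2.15-fold). The ratio of *Casp1* to *Il18* was 4.91, 3.75 and 5.06 in sh-NC and 12.4, 8.98 and 11.1 in sh-*Etv5* (2.37-fold). Each ratio was higher in all 3 sh-*Etv5* libraries than in any sh-NC library. For *Gsdmd* and *Nlrp3* this follows from the separate ranges of each gene given above. All 3 ratios share *Casp1*, so they are not independent results. The exact permutation test again gave its smallest p of 0.1, which separate groups of 3 always give. A ratio within a library does not depend on how libraries were scaled to each other.

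**Figure D3:**
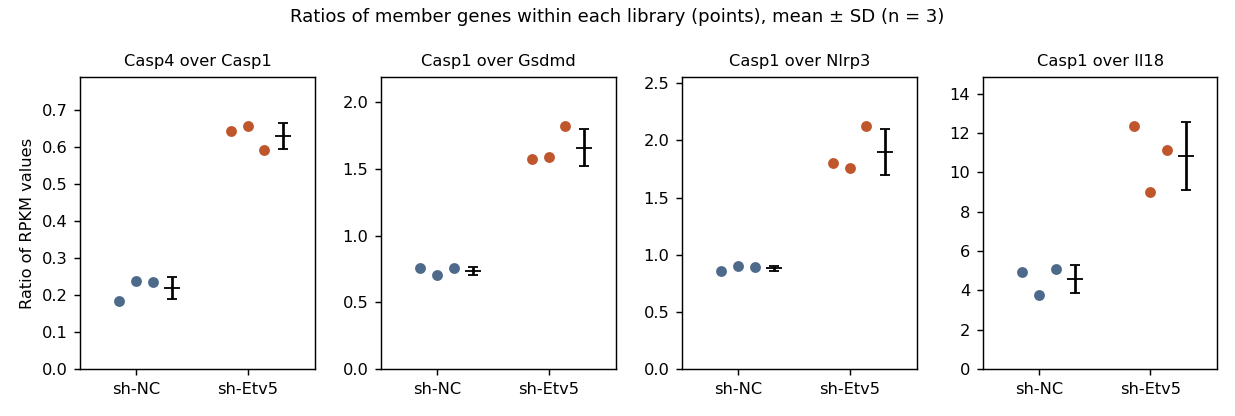
Ratio of the RPKM of the named gene pairs within each library (points; linear axes from 0), with mean and SD (n = 3) for sh-NC and sh-Etv5. All 3 sh-Etv5 points are above all sh-NC points in each panel, with means 2.89-fold, 2.25-fold, 2.15-fold and 2.37-fold higher from left to right.

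In order of mean RPKM, the sh-NC libraries had *Gsdmd* (29.7), *Nlrp3* (24.8), *Casp1* (21.9), *Aim2* (20.4), *Nek7* (19.3), *Il18* (4.87), *Casp4* (4.79), *Nlrp1b* (3.42), *Nlrc4* (0.584) and *Pycard* (0.0238). Only *Il18* and *Casp4* overlapped as neighbours in this order. In sh-*Etv5* the order was *Casp1* (43.8), *Casp4* (27.6), *Gsdmd* (26.4), *Aim2* (26.1), *Nlrp3* (23.1), *Nek7* (14.0), *Il18* (4.11), *Nlrp1b* (2.82), *Nlrc4* (1.57) and *Pycard* (0.0404), and *Aim2* overlapped with *Gsdmd*, its neighbour in the order, and also with *Casp4*. By mean RPKM *Casp4* stood at position 7 in sh-NC (6 by the median) and at position 2 in sh-*Etv5*, and *Casp1* at 3 and 1.

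Genes outside the set were compared with the 3 inflammasome genes of largest absolute change by their distance over the 6 libraries, after the sh-NC mean was subtracted. The nearest to *Casp4* were *C5ar1*, a complement receptor (distance 0.215, mean of 6.65 RPKM in sh-NC and 38.1 RPKM in sh-*Etv5*), and *Stk40* (0.250, 5.60 and 30.1 RPKM). The nearest to *Casp1* were *Grk5*, a receptor kinase (0.0839, 1.63 and 4.15 RPKM), and *Mlkl*, the effector of necroptosis (0.114, 7.34 and 15.4 RPKM). The nearest to *Nlrc4* were *Ssbp3* (0.0774, 6.03 and 10.2 RPKM) and *Rraga*, a GTPase of the mTORC1 pathway (0.0928, 36.4 and 59.1 RPKM). This likeness depends on the pseudocount of 1, since the log2 fold change of *Nlrc4* was 1.30 with a pseudocount of 0.1.

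A wider view of the pathway was taken from 7 lists with 100 symbols, of which 99 had a row and 74 passed the filter. Of these 74, 38 rose, 25 fell and 11 were not called, with a median log2 fold change of 0.14 beside -0.049 over all tested genes. The median was 0.056 without the filter and 0.077 with libraries rescaled to the same RPKM sum, and 4 of the 38 genes that rose (*Gbp3*, *Gsdme*, *Il1b* and *Il1f9*) passed the filter through sh-*Etv5* alone. As with the inflammasome genes themselves, these counts are to be read beside all tested genes. Of those, 74.3% were called, 33.3% as higher and 41.0% as lower, and the same holds for each list below.

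Of the 17 other sensors, 9 were tested, and 8 of these were higher, 1 was lower and 0 were not called (median 0.31). The number higher was 6 with quantile normalization and 4 among genes with a mean of at least 5 RPKM, and 3 of the 8 are paralogs of the *Naip* family. *Naip5*, which recognises flagellin for *Nlrc4*, had a mean of 2.25 RPKM in sh-NC and 5.16 RPKM in sh-*Etv5* (log2 fold change 0.92, adjusted p = 9.1e-07). *Naip2*, which recognises the secretion rod for *Nlrc4*, had 6.74 and 10.4 RPKM (0.56, adjusted p = 3.66e-06). These paralogs share 36.8% and 19.1% of their 50-base stretches with other genes, so the split of reads between them is uncertain. *Ifi204*, another HIN-200 gene, had 14.2 and 32.2 RPKM (1.12, adjusted p = 6.25e-09), with 20.0% shared. *Nod2*, a sensor of bacterial peptidoglycan, had 0.977 and 2.70 RPKM (0.91, adjusted p = 1.98e-06).

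Genes that trigger or modify NLRP3 moved in both directions, with 8 higher, 5 lower and 6 not called among 19 tested of 24 (median 0.056). The ATP-gated channels moved in opposite directions. *P2rx7*, the channel through which extracellular ATP engages NLRP3, was measured at 6.75, 7.17 and 6.58 RPKM in sh-NC and at 3.06, 3.46 and 3.12 RPKM in sh-*Etv5*, and fell by 0.90 on the log2 scale (adjusted p = 2.72e-07). *P2rx4* had a mean of 3.48 RPKM in sh-NC and 8.12 RPKM in sh-*Etv5* (log2 fold change 1.03, adjusted p = 1.09e-06). *Ddx3x*, an RNA helicase that takes part in NLRP3 assembly, went from 114 to 58.6 RPKM (-0.95, adjusted p = 1.32e-09). The tyrosine kinase *Syk* went from 14.9 to 28.9 RPKM (0.91, adjusted p = 1.39e-08). *Txnip*, a thioredoxin-binding protein, rose less (0.14, adjusted p = 0.00257).

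A list of genes tied to LPS and caspase-11 held 13, among them *Casp12*, *Tlr4*, *Ticam1*, *Ifnar1* and *Ifnar2*. Of the 10 tested, 3 were higher, 6 lower and 1 not called (median -0.16). *Ticam1*, the TRIF adaptor of TLR4, had a mean of 6.38 RPKM in sh-NC and 17.8 RPKM in sh-*Etv5* (log2 fold change 1.35, adjusted p = 1.08e-09). *Tlr4* itself had 5.96 and 3.70 RPKM (-0.57, adjusted p = 1.08e-05), and *Ifnar1* (-0.16) and *Ifnar2* (-0.44) were called lower as well. *Hmgb1* had 61.6 and 30.9 RPKM (-0.97, adjusted p = 8.54e-09). *Gbp3*, a guanylate-binding protein, had 0.671 and 2.54 RPKM (1.09, adjusted p = 6.02e-07). It passed the filter through sh-*Etv5* alone and so had to differ, and this p is no added support. *Gbp2*, of the same family, stayed below the filter at 0.339 and 0.437 RPKM, with overlapping groups.

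Of the other caspases and cell death genes, 5 were higher, 4 lower and 1 not called, and all 10 were tested (median 0.15). The 3 largest changes were of genes of necroptosis and its control. *Zbp1*, a nucleic acid sensor, had a mean of 4.93 RPKM in sh-NC and 16.8 RPKM in sh-*Etv5* (1.58, adjusted p = 2.29e-09). *Cflar*, the caspase-8 regulator cFLIP, had 8.04 and 18.8 RPKM (1.13, adjusted p = 1.24e-08), and *Mlkl* had 7.34 and 15.4 RPKM (0.97, adjusted p = 6.1e-08). *Casp8*, which can cleave gasdermin D, rose by less (0.27, adjusted p = 0.00101).

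Of the genes of pore formation, membrane rupture and repair, 6 were higher, 4 lower and 1 not called among 11 tested of 13 (median 0.18). *Gsdme*, the gasdermin that caspase-3 cleaves, had a mean of 0.784 RPKM in sh-NC and 1.96 RPKM in sh-*Etv5* (0.73, adjusted p = 1.3e-05). It passed the filter through sh-*Etv5* alone and so had to differ, and this p is no added support. *Rraga* had 36.4 and 59.1 RPKM (0.69, adjusted p = 8.4e-08), and *Chmp4b*, an ESCRT subunit of membrane repair, 90.8 and 132 RPKM (0.53, adjusted p = 7.23e-08). *Ninj1*, whose protein ruptures the plasma membrane, had 43.4 and 49.4 RPKM (0.18, adjusted p = 0.00425).

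Among the IL-1 and IL-18 cytokines and their brakes, 5 of 12 were tested, and 3 were higher, 1 lower and 1 not called. *Il1b* and *Il1f9* passed the filter through sh-*Etv5* alone and so had to differ, and the list's median is the value of *Il1b* itself. *Il1b*, the precursor of the other caspase-1 product, was measured at 0.0719, 0.215 and 0.170 RPKM in sh-NC and at 2.44, 2.21 and 2.30 RPKM in sh-*Etv5*. The log2 fold change was 1.53 (adjusted p = 3.24e-08), at a level below that of *Il18* in both groups. *Il1rn*, the secreted antagonist of the IL-1 receptor, had a mean of 14.7 RPKM in sh-NC and 177 RPKM in sh-*Etv5* (3.51, adjusted p = 1.94e-13). *Il1f9*, an older symbol of *Il36g*, was listed at 0 in each sh-NC library and measured at 8.66, 8.72 and 9.48 RPKM in sh-*Etv5*. *Il1a* stayed below the filter, at 0.0602 and 0.650 RPKM, with no overlap.

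Of the transcription factors of these genes, 5 were higher, 4 lower and 1 not called among 10 tested of 11 (median -0.023). With libraries rescaled to the same RPKM sum, 3 were higher and 5 lower. *Irf8*, which drives the NAIP genes and *Nlrc4*, had a mean of 25.9 RPKM in sh-NC and 47.4 RPKM in sh-*Etv5* (0.85, adjusted p = 7.23e-09). *Irf7*, the interferon-inducible regulator of type I interferon genes, had 77.3 and 136 RPKM (0.80, adjusted p = 4.14e-09). *Irf2*, which drives *Gsdmd*, had 15.8 and 9.70 RPKM (-0.65, adjusted p = 9.29e-07). *Irf1* had 4.90 and 4.24 RPKM and was not called (adjusted p = 0.0677).

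NF-kB target genes and interferon-induced genes were listed as references for the priming signals, with earlier results of these data known. Their counts are thus a description only, beside 74.3% called, 33.3% higher and 41.0% lower over all tested genes. Of 12 NF-kB target genes, 9 were higher, 1 lower and 2 not called (median 1.21). Of 12 interferon-induced genes, 9 were higher, 2 lower and 1 not called (median 0.74). The largest changes in the first were of *Cxcl2* (log2 fold change 8.14), *Ccl2* (6.31) and *Ptgs2* (5.11), and in the second of *Rsad2* (3.05), *Ifit2* (1.15) and *Isg15* (1.10). Those called lower were *Tlr2* (-0.82) in the first and *Mx1* (-0.74) and *Ddx58* (-0.25) in the second. *Nlrp3*, commonly given as an NF-kB-primed gene, stood at -0.10 beside the first list, and *Casp4*, commonly given as induced by interferon and LPS, at 2.31 beside the second. The part of the *S100a8* rise and of the macrophage marker changes, in both directions, in these values was not tested.

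**Figure D4:**
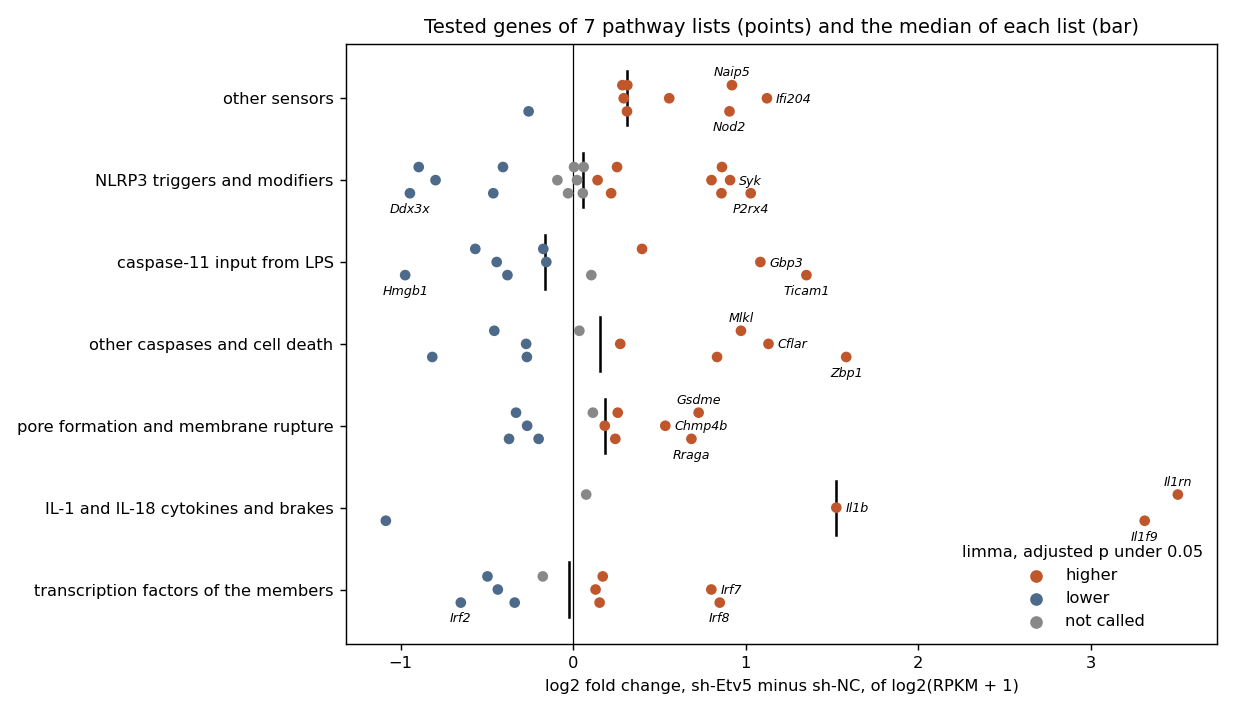
Log2 fold change (sh-Etv5 minus sh-NC, of log2(RPKM + 1)) of the 74 tested genes of 7 pathway lists (points, coloured by the limma call at an adjusted p under 0.05), with each list's median as a bar and its 3 largest called changes named. Of the 9 tested other sensors, 8 lie to the right of 0 and were called higher (median 0.31), beside 33.3% of all tested genes called higher. The list named caspase-11 input from LPS has a median of -0.16, beside -0.049 over all tested genes.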

How the data were processed

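The authors deposited RPKM values per gene symbol and library, which the methods tie to libraries from a TruSeq kit and to limma. The labels name mm10, and the aligner and counting tool are not given in the sources used here. At most 2.88% of a library's values were whole multiples of its smallest value within 0.01. RPKM is divided by gene length, so this check cannot show steps of whole reads. Only RPKM values were used here, so depth and counting error are unknown. Genes at 1 RPKM or more in at least 3 of 6 libraries (10738) were compared as log2(RPKM + 1) by limma 3.58.1 under R 4.3.3 (trended eBayes, two-sided, no covariate), and Benjamini-Hochberg adjusted p-values under 0.05 over all of them were called. No column was left unused. Ratios were tested by exact permutation. Python 3.11.15, pandas 2.3.3 and SciPy 1.17.1 were used, with GENCODE M21 positions and RefSeq promoters.

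The genes, the pathway lists and the reference lists were chosen with earlier results of these data known. All 10 genes, *Etv5*, the 3 called genes of largest change per list, 12 genes tied to a member, and the 2 nearest genes of 3 members were named, with markers. Neighbouring and overlapping genes, *Tlr4*, *Ifnar1*, *Ifnar2*, *Tlr2*, *Mx1* and *Ddx58* were named after their values were seen. *Il36g* and *Irgb10* were matched by RefSeq synonyms, and *Card8* had no row here. On simulated data for 10738 genes, 90 of 100 genes changed by 0.5 and 99 of 100 changed by 1 on the log2 scale were called, with 12 unchanged genes. Only these few genes were changed in the simulation, whereas 74.3% were called in the data. The simulated counts therefore do not give the error rate of the calls here. The alternatives tried were no filter, a mean of at least 5 RPKM, pseudocounts of 0.1 and 0.01, 2 rescalings, quantile normalization, eBayes without trend, a replicate block, and each library left out.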

Additional observations from a re-analysis of the deposited data

How the results depend on the processing

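The direction of each of the 9 tested inflammasome genes was kept in every alternative in which it was tested. The calls of *Casp4*, *Casp1*, *Aim2*, *Nek7* and *Gsdmd* held in all 15. That of *Nlrc4* held in the 14 that tested it, since it has no value with a mean of at least 5 RPKM. *Nlrc4* passed the main filter through sh-*Etv5* alone, so its calls under that filter are no added support. The fits with a library left out kept the same genes. The number of inflammasome genes called lower was 4, and 2 to 4 when a library was left out, with 2 left without sh-NC replicate 3 (*Nek7* and *Gsdmd*) or without sh-*Etv5* replicate 1, because *Nlrp3* and *Nlrp1b* then lost their calls. The median of the pathway lists moved from 0.14 to 0.056 without the filter, where genes near 0 are added, and to 0.077 with libraries rescaled to the same RPKM sum, where 3 of the transcription factors were higher and 5 lower in place of 5 and 4. A fit with a replicate block called 3539 genes higher and 4361 lower (7813 of the 7900 shared with the fit without it), *Nlrp3* lost its call (adjusted p = 0.0571) and *Il18* was called lower (adjusted p = 0.0495). Libraries of the same number did not deviate together (correlations of 0.074, -0.071 and -0.035). This shows no shared deviation, but it cannot tell whether the number marks paired cultures or infections. Rescaling to the same sum of genes outside the 10 highest, chosen after the data were seen, ended the call of *Nlrp3* and no other of these genes. Depth is unknown, which limits statements on *Pycard*, *Nlrc4* and *Il1b*.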
